A study of Homo sapiens with 2 samples.

Results

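The 466 peaks described here are the FLAG peaks on human chromosomes 17, 19 and 22, out of 9717 peaks in the deposited list. They were taken by chromosome name, leaving out alternate and unlocalized sequences, and the rule uses no measured value. Chromosome 17 held 253 of them, chromosome 19 held 121 and chromosome 22 held 92. They were set against the 794 peaks on the gene-poor chromosomes 4 and 18, with the 8328 peaks of the other autosomes beside them. The study mapped FOXO3 in U87MG, a human glioblastoma cell line, by CETCh-seq, in which CRISPR editing fuses a short tag, here FLAG, to the cell's own copy of a factor so that an antibody to the tag can precipitate its chromatin. The labels give both libraries, 1 FLAG immunoprecipitation and 1 input, as wild type, and both from cells given LY294002, which inhibits phosphoinositide 3-kinase. Whether the input was from tagged cells, and whether the FLAG cells were 1 edited clone, is not said there. With 1 FLAG library no difference between chromosomes can be tested against replicates. All intervals are 95% intervals for counting error. They take each peak as independent, so clustering makes them too narrow. Fold intervals cover the ChIP tags alone and take the background as exact, so the error of the control tags is not in them.

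FOXO3 is a forkhead transcription factor that insulin and growth factor signalling keeps out of the nucleus through phosphoinositide 3-kinase and AKT. When that signalling is blocked, FOXO3 enters the nucleus and binds sites that carry the forkhead core TGTTTAC, at genes of growth arrest, metabolism and stress resistance. Human chromosomes differ widely in gene content. Chromosomes 17, 19 and 22 are rich in genes and in G+C, whereas 4 and 18 are poor in both.

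The label of gene-dense was checked against the RefSeq table of protein-coding genes (GRCh38.p14), from which only gene numbers and densities were taken because the peaks are on hg19. Chromosome 19 had 24.8 coding genes per Mb and chromosome 17 had 14.1, the 2 highest of 22 autosomes. Chromosome 22 had 8.88 and ranked 5. Chromosomes 4 and 18 had 4.04 and 3.37 and ranked 20 and 21. The Mb here run from the lowest start to the highest end of the coding genes listed for a chromosome. On chromosome 22 this span is longer than the 34.9 Mb between its first and last summits, and on 13 it is longer than 93.5 Mb. The same holds on 14, 15 and 21, which have 85.0, 81.9 and 38.1 Mb between those summits. A longer span gives a lower gene density. The ranks by gene density therefore depend on the span taken. In the RefSeq promoter windows of coding genes (300 bases each, several per gene where starts differ), the median G+C was 63.7% on chromosomes 17, 19 and 22 and 61.7% on 4 and 18. TGTTTAC on either strand was present in 70 of 3109 windows (2.25%, exact interval 1.76 to 2.84) on 17, 19 and 22, in 45 of 1332 (3.38%, 2.47 to 4.49) on 4 and 18, and in 2.85% of all 22198 windows. The AP-1 site TGANTCA, which is its own reverse complement, was present in 5.63% (4.84 to 6.498), 7.81% (6.42 to 9.38) and 6.15%. The peaks were not placed on these promoters. The sequences and genes under the peaks were not analysed here.

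Peaks on chromosomes 17, 19 and 22 stood on a higher local background than those on 4 and 18. The background is the number of tags that the peak caller expected at the summit, recovered from the deposited fold and p. Its median was 8.38 tags (7.82 to 8.52) on 17, 19 and 22, against 4.65 on 4 and 18 and 5.45 (5.29 to 5.59) on the other autosomes. The difference from 4 and 18 was 3.72 tags (3.17 to 3.86). By chromosome the medians were 10.2 on 19, 7.82 on 22 and 7.68 on 17, and 4.65 on 4 and 4.75 on 18, so the members' medians did not overlap those of the comparison chromosomes. Of 22 autosomes, 19, 22 and 17 ranked 1, 3 and 4, and chromosome 20 ranked 2.

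The lowest background in the list, 3.65 tags, is the genome-wide level that applies where no local control window exceeds it. It was the background of 12 of the 466 peaks (2.58%, 1.34 to 4.45), against 186 of 794 (23.4%, 20.5 to 26.5) on 4 and 18. On the other autosomes the share was 19.6% (18.7 to 20.5), and in the whole list 1859 of 9717 peaks had this background. Chromosomes 19 and 22 had 1 such peak each and chromosome 17 had 10. The members' difference from 4 and 18 was −20.9 percentage points (−24.2 to −17.4). Across the 22 autosomes, coding genes per Mb and the median background had a Spearman correlation of 0.74, and of 0.71 without chromosome 13. These points share 1 control library and are a description. They use the gene densities given above, with the spans described there. Chromosome 13, which is among the other autosomes, held 1080 peaks at 11.6 per Mb, the highest density of the 22. Of its peaks 42.7% had the lowest background.

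**Figure D1:**
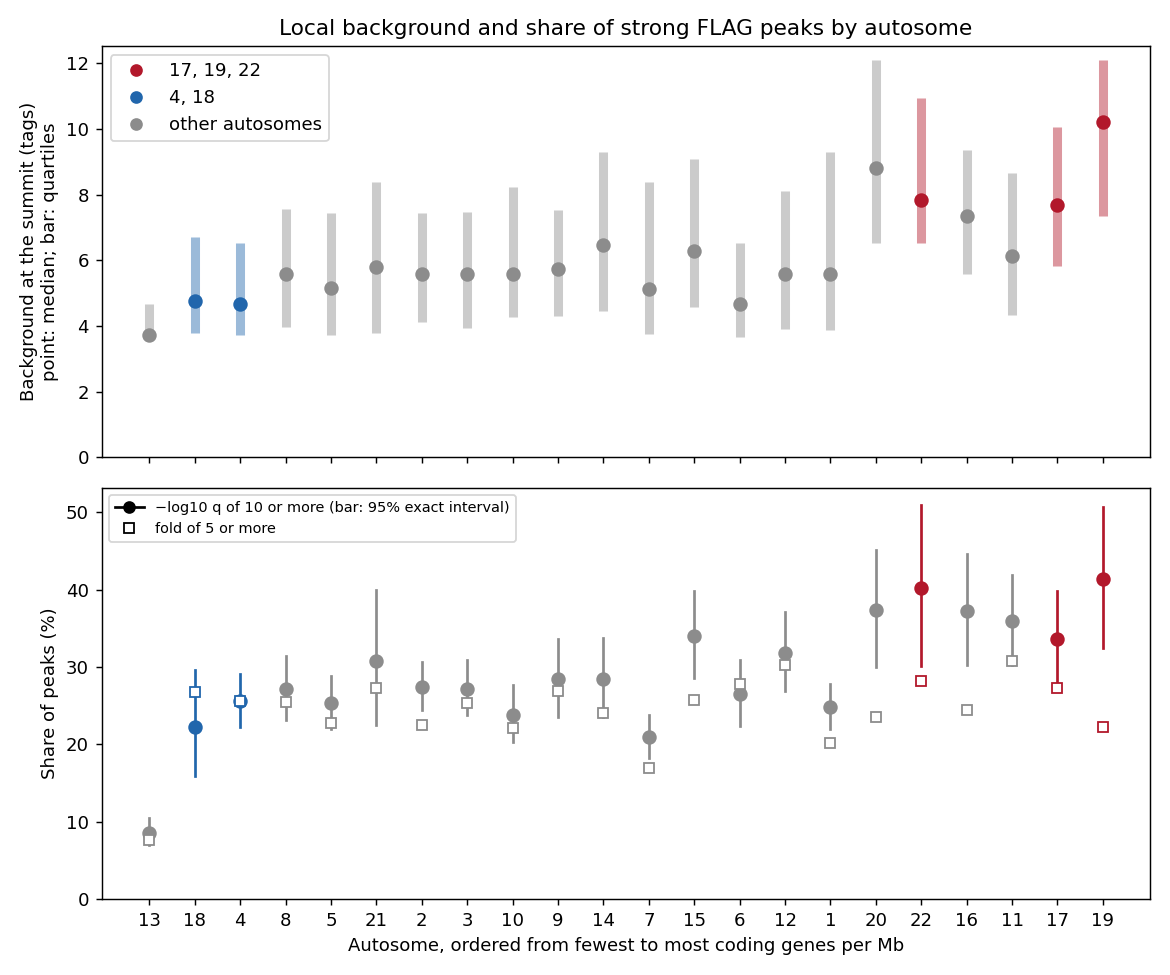
Upper plot, background at the summit in tags per autosome (point, median; bar, quartiles). Lower plot, the share of peaks in percent with a −log10 q of 10 or more (filled point, with its 95% exact interval) and with a fold of 5 or more (open square), both with autosomes ordered from fewest to most coding genes per Mb. The medians of 17, 19 and 22 lie at 7.68 to 10.2 tags and those of 4 and 18 at 4.65 and 4.75. The share by q is higher on 17, 19 and 22 than on 4 and 18. The share by fold is 22.3% on 19, 25.6% on 4, 26.8% on 18, 27.3% on 17 and 28.3% on 22.

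The caller compares several control windows at each summit and keeps the highest, and each window leaves its own step size in the background values. Some values fit the step of more than 1 window, and these were given to the shortest window that fits. The window of 1 fragment length (150 bp) set the background of 226 member peaks (48.5%, 43.9 to 53.1) and of 360 peaks on 4 and 18 (45.3%, 41.8 to 48.9). The 1 kb window set it for 171 members (36.7%, 32.3 to 41.3) against 161 (20.3%, 17.5 to 23.2), and the 10 kb window for 57 (12.2%) against 87 (10.96%). The members' background was higher within each of these windows. Its median was 9.78 against 5.59 tags where the fragment window decided, 7.82 against 5.31 for 1 kb and 5.82 against 4.39 for 10 kb. Peaks were sorted here by the window that was highest, so the level in the other windows is not known for them. The source of the higher background was not tested.

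The ChIP pileup, the number of FLAG tags at the summit, was higher as well. Its median was 35 tags (33 to 37) on 17, 19 and 22, against 24 (23 to 25) on 4 and 18 and 25 on the other autosomes. Chromosome 19 had a median of 38 tags, 22 of 36.5 and 17 of 33, while 4 and 18 had 24 and 25. A pileup of 50 tags or more was reached by 110 members (23.6%, 19.8 to 27.7), against 67 peaks on 4 and 18 (8.44%, 6.60 to 10.6) and 11.8% of the whole list. A peak on a higher background needs more tags to be listed. The least was 21 tags at the members' median background and 15 at that of 4 and 18. The pileup of listed peaks therefore rises with background in part by construction.

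Fold enrichment, the pileup plus 1 over the background plus 1, did not follow the pileup. The median fold was 3.86 (3.76 to 4.05) on 17, 19 and 22 and 4.08 (3.96 to 4.19) on 4 and 18. The difference of −0.22 had an interval from −0.37 to 0.0042, which includes 0. Single chromosomes interleaved, with medians of 3.81 on 17, 3.79 on 19 and 4.12 on 22 against 4.08 on 4 and 4.12 on 18. A fold of 5 or more was seen in 122 members (26.2%, 22.2 to 30.4), in 205 peaks on 4 and 18 (25.8%, 22.8 to 29.01) and in 22.1% of the whole list. The difference in share was 0.36 percentage points (−4.71 to 5.56). A fold of 10 or more was seen in 22 members (4.72%, 2.98 to 7.06), in 32 peaks on 4 and 18 (4.03%, 2.77 to 5.64) and in 2.26% of the whole list. Chromosome 22 had 8 of these 22 among its 92 peaks (8.70%, 3.83 to 16.4), chromosome 17 had 9 and chromosome 19 had 5.

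By q the order was different. A −log10 q of 10 or more, called strong here, was reached by 172 members (36.9%, 32.5 to 41.5), by 198 peaks on 4 and 18 (24.9%, 21.96 to 28.1) and by 25.5% of the whole list. The difference was 12.0 percentage points (6.56 to 17.4). Chromosome 19 had 41.3% strong peaks, 22 had 40.2% and 17 had 33.6%, against 25.6% on 4 and 22.2% on 18. These ranked 1, 2 and 7 of 22 autosomes. Strength by q and strength by fold thus gave different answers for the same peaks. A given fold over a higher background rests on more tags and has a smaller q. At the median background of 4 and 18, 29 tags were needed for a −log10 q of 10, which is a fold of 5.31. At the median background of 17, 19 and 22, 39 tags were needed, which is a fold of 4.26. On the median background of chromosome 19 the fold needed was 3.93. The least fold that could enter the list moved in the same way, from 2.83 (15 tags) to 2.35 (21 tags).

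**Figure D2:**
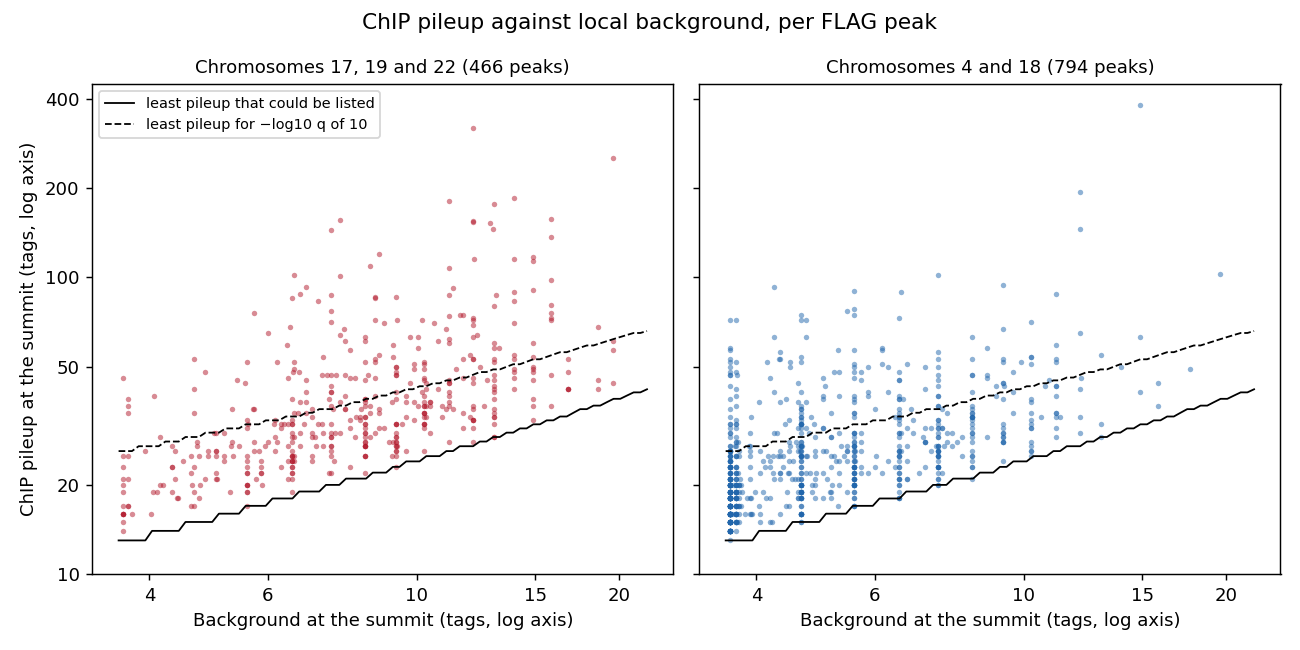
ChIP pileup against background at the summit, both in tags on log axes, with 1 point per peak. Left, the 466 peaks of chromosomes 17, 19 and 22; right, the 794 peaks of 4 and 18. The solid line is the least pileup that could be listed and the dashed line the least for a −log10 q of 10. The members lie further to the right and higher, and the column of points at the lowest background, 186 peaks on 4 and 18, is nearly empty for the members with 12.

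Peaks were then compared on like backgrounds, in 5 classes chosen after the values had been seen. Among peaks on the lowest background 1 of 12 members was strong (8.33%, 0.21 to 38.5), against 15.1% on 4 and 18. Between the lowest background and 1.5 times it, 22.2% of 63 members and 26.7% of 303 peaks were strong. From 1.5 to 2 times, the shares were 31.7% of 104 and 29.7% of 145. From 2 to 3 times, they were 38.8% of 170 and 27.1% of 129, a difference of 11.7 percentage points (0.42 to 22.5). From 3 times upward they were 49.6% of 117 and 35.5% of 31, a difference of 14.1 points (−7.23 to 32.9). The share was lower for members in the 2 lowest classes and higher in the other 3, and 4 of the 5 intervals of difference included 0. On the other autosomes 36.1% of peaks from 2 to 3 times were strong. The members' difference from them was 2.77 points (−4.96 to 10.9), and against them the interval included 0 in every class.

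Weighted to the background classes of 4 and 18, the share of strong peaks was 24.5% for the members and 24.9% for the comparison. Weighted to the members' own classes it was 36.9% against 29.4%, a difference of 7.48 points. The first weighting leans on classes with few members and the second on classes with few comparison peaks. The median fold of members was 0.32 higher from 2 to 3 times (−0.065 to 0.65) and 0.22 higher from 1.5 to 2 times (−0.19 to 0.63). Both intervals include 0. The median pileup of members was 6 tags higher from 2 to 3 times (1.76 to 8.24) and 3 tags higher from 1.5 to 2 times (0.17 to 6.16). In the remaining classes the difference was 0 to 7 tags, with intervals that included 0. The share with a fold of 5 or more was 23.5% against 13.2% from 2 to 3 times, a difference of 10.4 points (0.97 to 19.2). In the other 4 classes the interval of that difference included 0. On the other autosomes the share from 2 to 3 times was 22.5%. The members' difference from them was 1.04 points (−5.45 to 8.41), and against them the interval of this share included 0 in every class. Medians did differ from the other autosomes between the lowest background and 1.5 times it. There the members' median fold was 0.40 higher (0.060 to 0.58) and their median pileup 5 tags higher (0.88 to 6). For both medians the intervals against the other autosomes included 0 in the other 4 classes.

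Peak width did not differ beyond counting error when all peaks were taken. The median was 260.5 bp (244 to 286) on 17, 19 and 22 and 248 bp (242 to 264) on 4 and 18, a difference of 12.5 bp (−10.5 to 38.7). A width of 500 bp or more was seen in 34 members (7.30%, 5.11 to 10.0), in 8.82% of peaks on 4 and 18 (6.94 to 11.01) and in 7.38% of the whole list. At a like pileup, however, member peaks were narrower. With 20 to 29 tags their median width was 210 bp (196 to 221), against 240 bp (233 to 255), a difference of −30.0 bp (−50.5 to −17.0). With 30 to 49 tags it was 251 against 323 bp, a difference of −72.0 bp (−100.02 to −30.6), and with 50 to 99 tags 387 against 494.5 bp, a difference of −107.5 bp (−173.8 to −21.6). With under 20 tags the widths were 208 and 189 bp, and the interval included 0 (−20.0 to 58.0). Against the other autosomes the differences were smaller. They were −17.0 bp (−31.6 to −4.92) with 20 to 29 tags and −40.0 bp (−57.1 to −5.52) with 30 to 49. With 50 to 99 tags the difference was −36.0 bp (−58.5 to −3.69), where the median of the other autosomes was 423 bp.

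In the same pileup classes the members' background was higher and their fold lower. With 30 to 49 tags the median background was 9.25 against 6.52 tags and the median fold 3.74 against 4.92. A peak ends where the pileup no longer passes the local background, so width and background are not independent measures, and the part of the background in the width was not tested. By background class the median widths were 200 against 223 bp at the lowest, 249 against 247 bp up to 1.5 times, 251.5 against 255 bp from 1.5 to 2 times, 245.5 against 279 bp from 2 to 3 times and 313 against 301 bp from 3 times upward. All 5 intervals of difference included 0, that from 2 to 3 times running from −68.7 to 17.1 bp.

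**Figure D3:**
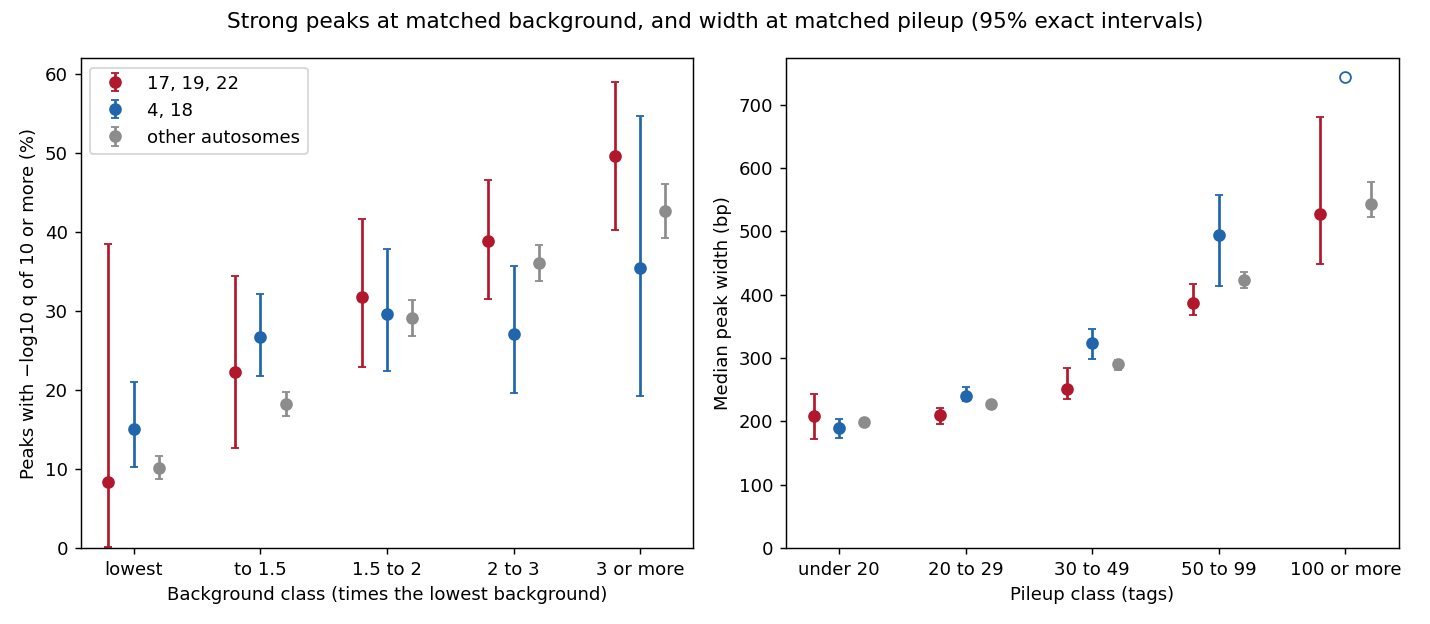
Left, the share of peaks in percent with a −log10 q of 10 or more by background class (times the lowest background); right, the median width in bp by pileup class in tags. Red is 17, 19 and 22, blue is 4 and 18 and grey is the other autosomes. Bars are 95% exact intervals, and the open point rests on 5 peaks with no interval. From 20 to 99 tags the median width of members is below that of 4 and 18 in each class, with overlapping intervals at 50 to 99 tags. The intervals of strong shares overlap in every background class. For strong shares from 2 to 3 times, the interval of the difference from 4 and 18 nevertheless leaves out 0 (0.42 to 22.5 points).

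Per Mb of sequence the gene-dense chromosomes held about as many peaks as 4 and 18 within counting error, more of them strong. Over the 173 Mb between first and last summits the members numbered 2.69 per Mb (2.45 to 2.95), against 3.02 (2.81 to 3.23) over 263 Mb of 4 and 18, a ratio of 0.89 (0.79 to 1.00). Chromosomes 4 and 18 differed from each other by more than this, with 3.40 (3.14 to 3.67) and 2.05 (1.74 to 2.40) peaks per Mb. The members spanned a like range, 3.20 on 17, 2.63 on 22 and 2.05 on 19. Against chromosome 18 alone the ratio was 1.31 and against chromosome 4 alone 0.79, so no direction holds against both. Strong peaks numbered 0.99 per Mb on the members' chromosomes and 0.75 on 4 and 18, a ratio of 1.32 (1.07 to 1.63). Chromosome 18 was the lowest of the 5 with 0.46, while chromosome 4 (0.87) lay above 19 (0.85) and below 17 (1.07) and 22 (1.06). Against the other autosomes the ratio of strong peaks was 1.12 (0.95 to 1.30). The weaker peaks numbered 1.70 and 2.26 per Mb, a ratio of 0.75 (0.65 to 0.86). Peaks of a fold of 10 or more had a ratio of 1.05 (0.58 to 1.86) against 4 and 18 and of 1.82 (1.11 to 2.85) against the other autosomes.

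Because the chromosomes were chosen for gene density and held like numbers of peaks per Mb, their numbers per gene differ by construction and are given as a description. There were 15.2 peaks per 100 coding genes on 17, 19 and 22, against 76.4 on 4 and 18, a ratio of 0.20 (0.18 to 0.22). For strong peaks the numbers were 5.60 and 19.1, a ratio of 0.29 (0.24 to 0.36). Chromosome 19 had 8.34 peaks per 100 coding genes, the lowest of 22 autosomes, chromosome 22 had 20.4 and chromosome 17 had 21.6. The lowest value on the comparison chromosomes was 56.7 on 18. Across the 22 autosomes, coding genes per Mb and peaks per Mb had a Spearman correlation of −0.39 (−0.30 without chromosome 13), as a description of 1 list. Genes and peaks per Mb were taken over different spans, as described above.

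Summits on 17, 19 and 22 were spaced more widely than on 4 and 18 together. From 1 summit to the next the median distance was 185 kb (153 to 211) over 463 pairs, against 131 kb (116 to 149) over 792 pairs, a difference of 53.8 kb (17.6 to 83.6). This rests on chromosome 4. By chromosome the medians were 155 kb on 17, 232 kb on 19 and 189 kb on 22, against 122 kb on 4 and 213 kb on 18, and against chromosome 18 alone the difference was −28.2 kb. Divided by the mean distance of each chromosome, the median was 0.49 for members and 0.42 on 4 and 18, with a difference of 0.076 (−0.013 to 0.19).

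Close neighbours were few. Of 463 member pairs, 30 were at most 10 kb apart (6.48%, 4.41 to 9.12), against 76 of 792 (9.60%, 7.64 to 11.9) and 14.8% of pairs on the other autosomes. The last share includes chromosome 13, where 357 of 1079 pairs (33.1%) were so close. Chromosome 17 held 23 of the 30 member pairs (9.13% of its pairs), chromosome 19 had 4 (3.33%) and chromosome 22 had 3 (3.30%). At most 1 kb apart were 4 member pairs (0.86%, 0.24 to 2.20), against 16 on 4 and 18 (2.02%, 1.16 to 3.26). These intervals overlapped, and the share on the other autosomes was 2.42%. The 4 member pairs were 691 and 769 bp apart on chromosome 17, 487 bp on 19 and 907 bp on 22. The folds of these 8 peaks ran from 3.28 to 7.14.

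**Figure D4:**
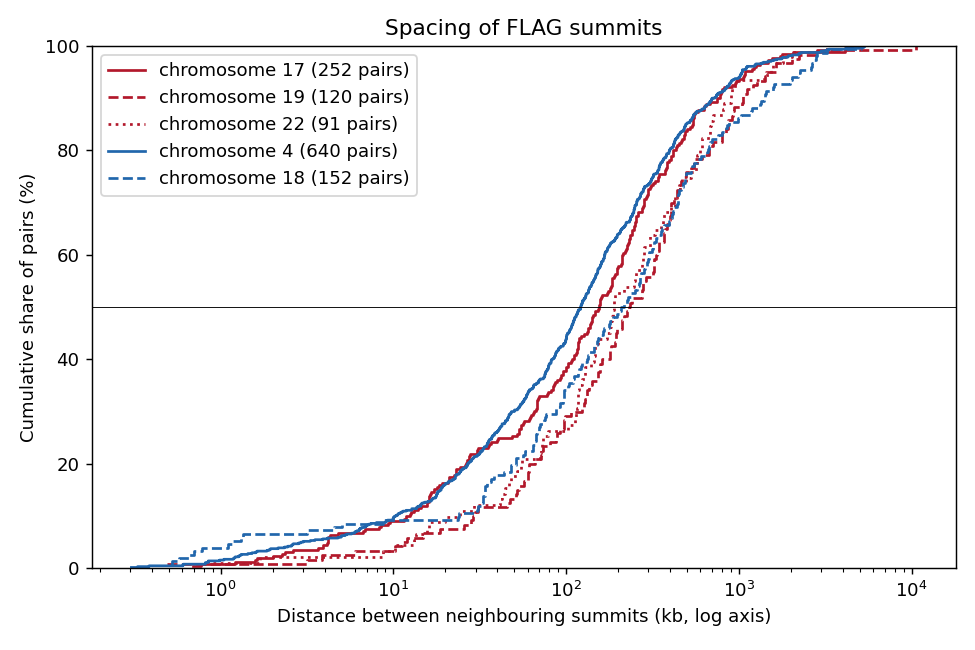
Cumulative share of neighbouring pairs in percent against their distance in kb on a log axis, with 1 line per chromosome. At 10 kb the lines of 19 and 22 stand at 3.33% and 3.30% and those of 17, 18 and 4 at 9.13%, 9.21% and 9.69%. The medians are 155, 232 and 189 kb on 17, 19 and 22, and 122 and 213 kb on 4 and 18.

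The strongest member was a chromosome 19 peak, chr19:50380286-50381080 (hg19), where 320 tags over 12.1 gave a fold of 24.5 (21.9 to 27.3). It ranked second by fold in the whole list and was, at 795 bp, the widest member. Its background equals 13 control tags at the summit itself, and the nearest other summit lay 59.9 kb away. The next on this chromosome, chr19:50316554-50317233, had a fold of 12.4 (10.7 to 14.3) from 185 tags over 14.0. Peaks at chr19:7294200-7294499, chr19:54693477-54694173 and chr19:12901844-12902363 had folds of 11.4 (9.05 to 14.3), 11.05 (9.37 to 12.9) and 10.5 (8.89 to 12.3). The intervals of the second to the fifth overlapped, so their order is within counting error. The first of these 3 peaks was 300 bp wide and rested on 76 tags over 5.73, the lowest background of the 5.

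On chromosome 22 a pair of peaks led, chr22:31451484-31452071 with 156 tags over 7.68, a fold of 18.1 (15.4 to 21.1), and chr22:41042180-41042786 with 17.3 (14.6 to 20.3) from 145 tags over 7.45. Their intervals overlapped. The third and the fifth by fold were neighbours, with summits 1.70 kb apart. The first of them, chr22:31686416-31687100, had 252 tags over 19.6, a fold of 12.3 (10.8 to 13.9). The other, chr22:31688115-31688676, stood on a background of 7.68 tags and had a fold of 11.8 (9.59 to 14.3). The background of the first equals 21 control tags at its summit, but the value also fits the step of the 1 kb window. It was the highest of any member and is shared with 2 peaks on 17 and 1 on 19. Those peaks, chr17:21187632-21188011, chr17:70695707-70695909 and chr19:19431606-19431838, had folds of 3.02, 2.19 and 2.82. The fourth, chr22:39541651-39542052, had a fold of 11.9 (10.1 to 13.9).

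The 5 leading peaks of chromosome 17 formed an even series with no peak standing apart. The first, chr17:62804447-62805202, had a fold of 14.95 (12.9 to 17.3) from 181 tags over 11.2 and was the widest on that chromosome at 756 bp. The second, chr17:20932196-20932798, had 13.6 (11.1 to 16.5) from 102 tags over 6.56. Peaks at chr17:40896808-40897274, chr17:79367770-79368217 and chr17:74558734-74559219 had folds of 12.7 (10.9 to 14.7), 12.3 (10.3 to 14.7) and 12.0 (9.70 to 14.7). All 5 intervals overlapped. The peak from 79367770 had its nearest neighbouring summit 1.22 kb away.

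Leading peaks on the gene-poor chromosomes reached like folds from fewer tags. The 3 of highest fold on chromosome 4 had folds of 17.9 (14.5 to 21.9), 15.7 (12.3 to 19.7) and 15.5 (12.1 to 19.4) from 93, 72 and 72 tags, over backgrounds of 4.25, 3.65 and 3.72. On chromosome 18 the second and the third had folds of 13.4 and 12.7 from 75 and 58 tags. The exception was the first of chromosome 18, chr18:9475107-9475920, where 380 tags over 14.9 gave a fold of 24.0 (21.6 to 26.5), close to the leading member on chromosome 19. The intervals of those 2 peaks overlapped.

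**Figure D5:**
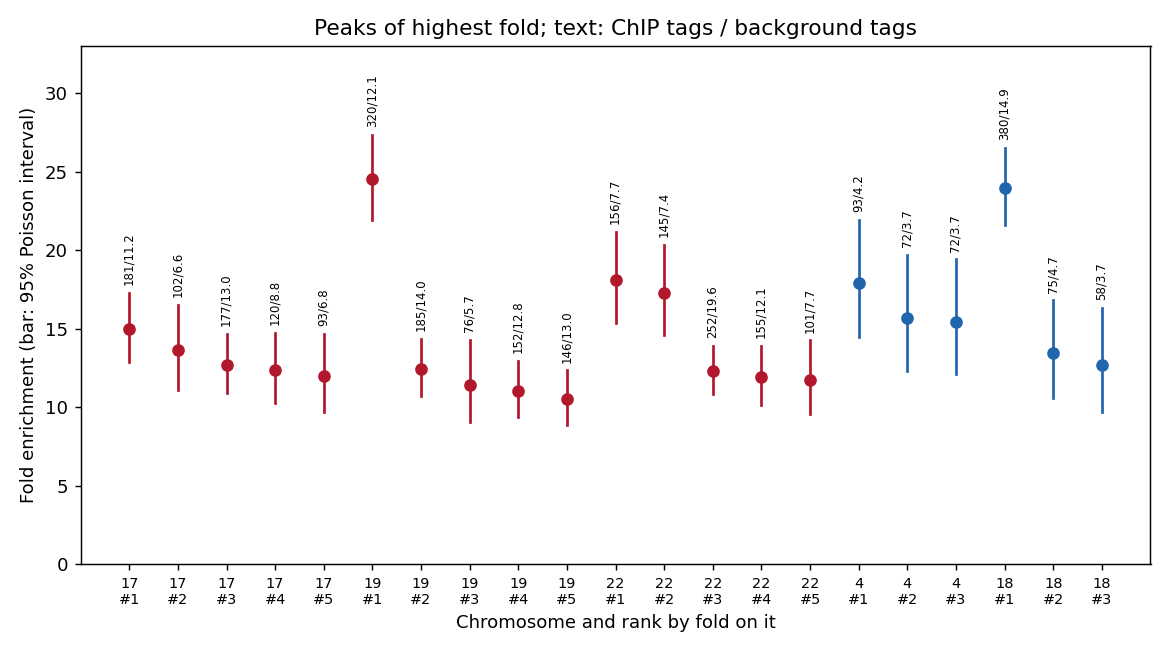
Fold enrichment, with 95% Poisson intervals, of the 5 peaks of highest fold on 17, 19 and 22 (red) and the 3 of highest fold on 4 and 18 (blue), with ChIP tags over background tags printed above each. One peak each on 19 and 18 reaches a fold of about 24, and most of the other red points rest on more tags and higher backgrounds than the blue points of like fold.

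Along the chromosomes the number of members per 1 Mb bin varied, and most bins held at least 1. Whether summits group more than scattered ones would was not tested. The fullest 1 Mb bin of chromosome 22 ran from 36000001 to 37000000 and held 11 summits, 6 of them strong, with folds up to 11.6. On chromosome 17 the bin from 62000001 to 63000000 held 9 summits, 4 of them strong, and includes the leading peak of that chromosome. On chromosome 19, 2 bins held 8 summits each, from 18000001 to 19000000 with 4 strong peaks and from 47000001 to 48000000 with 2. On chromosome 4, 2 bins held 16 summits each, of which 5 and 2 were strong, and the fullest bin of 18 held 9, of which 2 were strong. Over whole chromosomes the strong shares were 40.2% on 22, 33.6% on 17, 41.3% on 19, 25.6% on 4 and 22.2% on 18. No summit was called in 16 of 81 bins on chromosome 17 (19.8%), in 16 of 60 on 19 (26.7%) and in 5 of 35 on 22 (14.3%), against 39 of 189 on 4 (20.6%) and 25 of 75 on 18 (33.3%). The longest stretch without a summit was 10.6 Mb on chromosome 19, from 19431733 to 30078600, which includes the centromere. On chromosome 17 it was 4.54 Mb, from 8091196 to 12630983, and on chromosome 22 it was 3.25 Mb, from 47724777 to 50979509. The span less the longest stretch of each chromosome gave a density ratio of 0.96 (0.85 to 1.08) against 4 and 18.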

How the data were processed

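Per the labels' protocols, U87MG cells were fixed in 1% formaldehyde for 10 min, quenched for 5 min and sonicated for 10 min. Trimmomatic, HISAT2 and MACS2 on hg19 are named per the submitters' processing notes. Versions, settings and the control library of the calls were not given in the sources used here. Deposited by the authors was a peak list with a fold (ratio), a −log10 p, a −log10 q and a score per peak. The score is 10 times that −log10 q, cut to a whole number, in each deposited row.

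From fold and p, a whole-number pileup and a background were recovered per peak (largest error 5.0e-04 in −log10 p). Tested on simulated data with folds of 2.45 or more and pileups up to 512 tags, this returned 2000 of 2000 pairs. The simulation did not cover lower folds, which reach 2.14 among the members. Larger pileups and backgrounds above 20 tags, which also occur in the list, were not covered either. Backgrounds above the lowest and under 20 tags are steps of 0.931 tags, or that step spread over 1 or 10 kb, within 2e-04. The smallest pileup was 13 tags.

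Shares have exact Clopper-Pearson intervals, folds exact Poisson intervals, and medians binomial order-statistic intervals. Differences combine both groups' intervals, and ratios are conditional binomial. No test was run. Named peaks were the 5 of highest fold on 17, 19 and 22 and the 3 on 4 and 18, the widest, those of highest background and the fullest 1 Mb bins. The chromosomes and settings were chosen with earlier results of these data known. Python 3.11.15, scipy 1.17.1 and pandas 2.3.3 were used.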

Additional observations from a re-analysis of the deposited data

Results flagged for a closer look

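Alternate and unlocalized sequences of chromosomes 17, 19 and 22, which no comparison used, held 14 peaks. A peak of 78 tags had their highest fold, 12.0, on an alternate haplotype of chromosome 17 with 5 peaks. The 8 peaks on an unlocalized sequence of chromosome 17 had folds from 2.28 to 3.69 on backgrounds between 6.44 and 53.8 tags.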

How the results depend on the processing

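Of 73 alternatives over 6 results, 47 were counted as the same, 22 as moved and 4 as reversed. The same means a value within the main interval. Reversed means the other direction, and was counted only where the main interval did not include a value of no difference. The main intervals of density, fold and width did include it. Changes of direction in density, fold and width are therefore counted as moved, or as the same if within the main interval. For spacing over the chromosome mean, which has another unit, it means only the same direction. Of these alternatives, 7 were chosen after seeing the data. The density ratio of 0.89 became 1.12 and 1.34 for peaks with a −log10 q of 5 and 10 or more (with the span taken between the first and last summit of the peaks kept, against 1.32 over the span of all peaks), 0.79 and 1.31 against chromosomes 4 and 18 alone, 0.76 against all other autosomes (here and below with 4 and 18 among them), 0.75 without chromosome 17, 1.00 without 19 and 0.20 per coding gene. The difference in strong share (12.0 points) fell to 0.36 with a fold of 5 or more as the measure, and reversed to −6.72 on the lowest background and to −0.47 when standardised to the background classes of 4 and 18. The fold difference of −0.22 became −0.40 and −0.63 for a −log10 q of 5 and 10 or more, and 0.099 and 0.22 when standardised to the background classes of 4 and 18 and of the members. The width difference of 12.5 bp became −17.0 bp for a −log10 q of 10 or more, −30.0 bp for 20 to 29 tags, and −33.5 and −68.5 bp when standardised to the pileup classes of 4 and 18 and of the members. The background difference of 3.72 tags was 3.07 against all other autosomes, 4.003 without chromosome 17 and 3.12 without 19. The spacing difference of 53.8 kb became 91.6 kb against all other autosomes and 85.3 kb without chromosome 17, and reversed to −99.3 kb for a −log10 q of 10 or more and to −28.2 kb against chromosome 18 alone. Where no sentence above gives a reason by construction, the cause was not tested. Leaving out high backgrounds removed no member, and merging summits within 500 bp removed 1. No paired analysis was possible because there is 1 FLAG library and the result comes from no test. A site under 13 tags could not enter the list.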
